A study of Mus musculus with 6 samples.

Results

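Transcription factor genes known for roles in endothelium, though not all confined to it, were followed through cultures made from female and male mouse aortas. The 10 genes were Erg, Fli1, Sox7, Sox17, Sox18, Tal1, Lyl1, Gata2, Klf2 and Klf4, chosen by name, and each matched 1 of the 54532 genes in the deposited table. Poly-A RNA-seq had been run on 6 libraries, 3 from female and 3 from male cultures, all wild type and untreated, kept in F-12 medium to which serum, endothelial growth factors and heparin were added. The labels call every culture MAEC (mouse aortic endothelial cells) and give neither strain nor age. Whether libraries of the same sex represent different mice or separately grown dishes is not in the labels. The p-values therefore reflect the spread among these samples alone, and that spread may be technical. Where libraries of a sex share a culture, sex and culture of origin cannot be told apart.

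ERG and FLI1 are ETS-domain proteins that hold endothelial genes active. SOX7, SOX17 and SOX18 form the SOXF group, known for its part in arterial and lymphatic vessels. TAL1 and LYL1 are bHLH proteins that bind DNA in complexes with E proteins, LMO2, LDB1 and GATA factors in blood and endothelial cells, and GATA2 is the GATA factor of endothelium and of early blood cells. KLF2 and KLF4 are zinc finger proteins induced by laminar flow through the MEK5, ERK5 and MEF2 pathway, and both are also expressed outside endothelium.

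Library totals ran from 17410996 to 22993574 counts, so that 3 counts, the floor for a single library, corresponded to 0.128 to 0.171 CPM (counts scaled to library size with TMM factors). Where a sex had no count, fold bounds set 3 counts for the sum of its 3 libraries. Xist and the Y-linked genes followed the sex labels in all 6 libraries. Male replicate 3 stood apart (its log2 CPM correlated at 0.977 and 0.984 with male replicates 1 and 2, against at least 0.992 among female libraries), and the calls it moves among the genes described are given without it, in a fit that called 32.7% of all tested genes against 18.3% with it. Of 14 endothelial markers, 11 were below 1 CPM throughout, and Robo4, Cldn5, Cdh5 and Tie1 had no count at all, which goes against the label of the cells. The list summed to 225 to 242 CPM in female and 270 to 279 CPM in male libraries, most of it from Eng and Flt1. By edgeR 0 of its 4 tested genes were called (2 lower and 0 higher at an unadjusted p under 0.05, 1 lower by DESeq2, 3 lower by limma-voom). Without male replicate 3, 1 was called, Flt1, lower in female (adjusted p by edgeR = 0.00247). All 10 fibroblast markers were expressed, summing to 11826 to 12690.5 CPM in female and 6541 to 7144 CPM in male libraries.

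The 10 factors fell into 2 groups by level. Klf4, Klf2, Gata2 and Sox7 were expressed in all libraries, and Fli1, Lyl1, Erg, Sox17, Sox18 and Tal1 were near or at 0. Between the sexes, Gata2 and Klf2 were lower and Klf4 was higher in female libraries. In the edgeR quasi-likelihood test 2733 of 14932 genes (18.3%) were called at a Benjamini-Hochberg adjusted p under 0.05, 9.68% higher and 8.62% lower in female. Of the 10 factors 5 had enough counts to be tested, with 1 called higher, 2 called lower and 2 not called. Among all transcription factor genes of the authors' tf_family column, 196 of 967 tested (20.3%) were called, 11.5% higher and 8.79% lower. With 5 genes tested, the count of called factors carries no more than the values of the genes themselves.

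**Figure D1:**
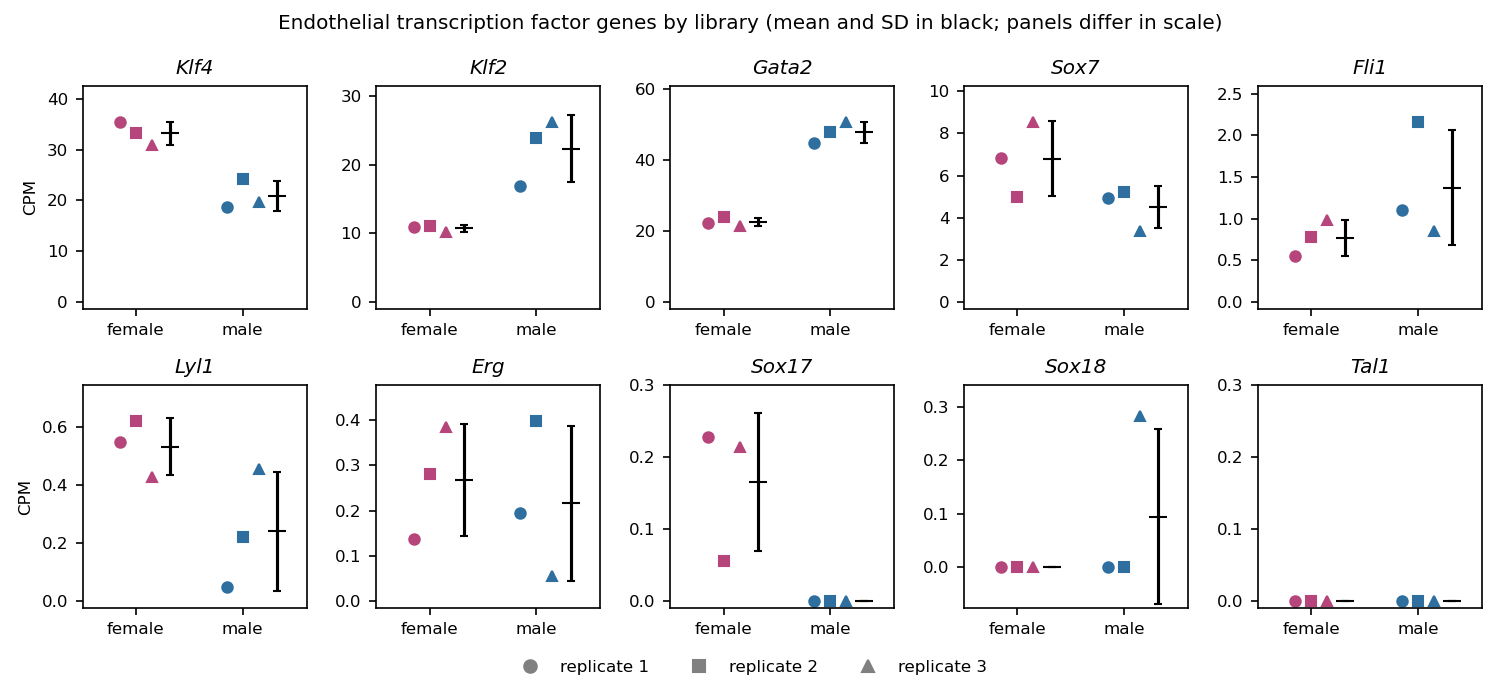
CPM of each of the 10 factor genes in every library, with replicates marked by shape, the mean ± SD of 3 libraries in black and a separate vertical axis for each gene. Klf4, Klf2 and Gata2 separate the sexes without overlap, while Fli1, Lyl1 and Erg overlap and Tal1 is at 0 in all 6 libraries.

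Levels between genes were compared as RPKM, the CPM per kilobase of the deposited gene length. In female libraries Klf4 stood highest at 10.9 ± 0.733 RPKM (SD, n = 3), followed by Klf2 at 5.8 ± 0.271, Gata2 at 4.17 ± 0.225 and Sox7 at 2.06 ± 0.536 RPKM. None of these 4 overlapped its neighbour in that order. In male libraries Klf2 came first at 12.1 ± 2.6 RPKM and overlapped Gata2 at 8.84 ± 0.563 RPKM, followed by Klf4 at 6.83 ± 0.987 RPKM and Sox7 at 1.36 ± 0.303 RPKM. Klf4 thus stood above Klf2 and Gata2 in female libraries and below both in male libraries. All other factors were under 0.4 RPKM on average in each sex. Within the lower group, Lyl1 and Fli1 overlapped in both sexes, as did Erg and the gene after it in the order. Klf4 lay above 70.6% of tested genes in female and 59% in male libraries, and Klf2 above 54.6% and 73.2%.

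Erg (chromosome 16, 95359169 to 95586593) was barely detected, with 3, 5 and 9 counts in the female and 4, 9 and 1 counts in the male libraries. The sexes overlapped throughout, and no library exceeded 0.397 CPM. The pooled ratio of female to male was 1.17, with a 95% counting interval of 0.544 to 2.57 (exact binomial, counting error only). A difference in Erg within that interval was not detectable at this depth.

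Fli1 (chromosome 9, 32422204 to 32542861) had 12, 14 and 23 counts in female and 23, 49 and 15 counts in male libraries. These were 0.548, 0.787 and 0.982 CPM in female and 1.11, 2.16 and 0.853 CPM in male libraries. Male replicate 2 was the highest of all 6 and male replicate 3 lay inside the female range. The log2 ratio (the edgeR log2 fold change of female over male) was -0.84 ± 0.49 (SE; adjusted p by edgeR = 0.298) and it was not called. Without male replicate 2 it was -0.36 (adjusted p by edgeR = 0.763). Limma-voom with quality weights called Fli1, at -1.32 (adjusted p = 0.00929), in a fit that called 3305 of 14932 genes higher and 3289 lower.

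Both genes were low beside the rest of their family. Erg and Fli1 ranked 17 and 16 of 25 ETS genes in each sex, behind the 15 other tested members. Erg made up 0.0421% and 0.0346% of the summed ETS RPKM in female and male libraries and Fli1 0.12% and 0.223%. The most abundant ETS genes were Etv5, at 34.6 RPKM in female and 27.7 in male libraries, and Elk3, at 34.1 and 35, a repressor that responds to Ras signalling. Of the other 23 ETS genes 15 were tested, with 1 higher, 0 lower and 14 not called, beside 18.3% called over all tested genes. Their median log2 ratio was -0.01, equal to the -0.01 over all tested genes. At an unadjusted p under 0.05 these were 3 higher and 0 lower, and by DESeq2 1 and 0. By limma-voom, which called 3305 and 3289 of 14932 genes, they were 4 and 3. Without male replicate 3, where 32.7% of all tested genes were called, they were 1 and 1. The gene called by edgeR with all libraries was Ets2 (41.1 ± 3.34 CPM in female and 28.9 ± 3.27 in male libraries, log2 ratio 0.51 ± 0.13, adjusted p by edgeR = 0.0228). Etv2, which starts the endothelial programme in the embryo, had 0 counts in all 6 libraries.

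**Figure D2:**
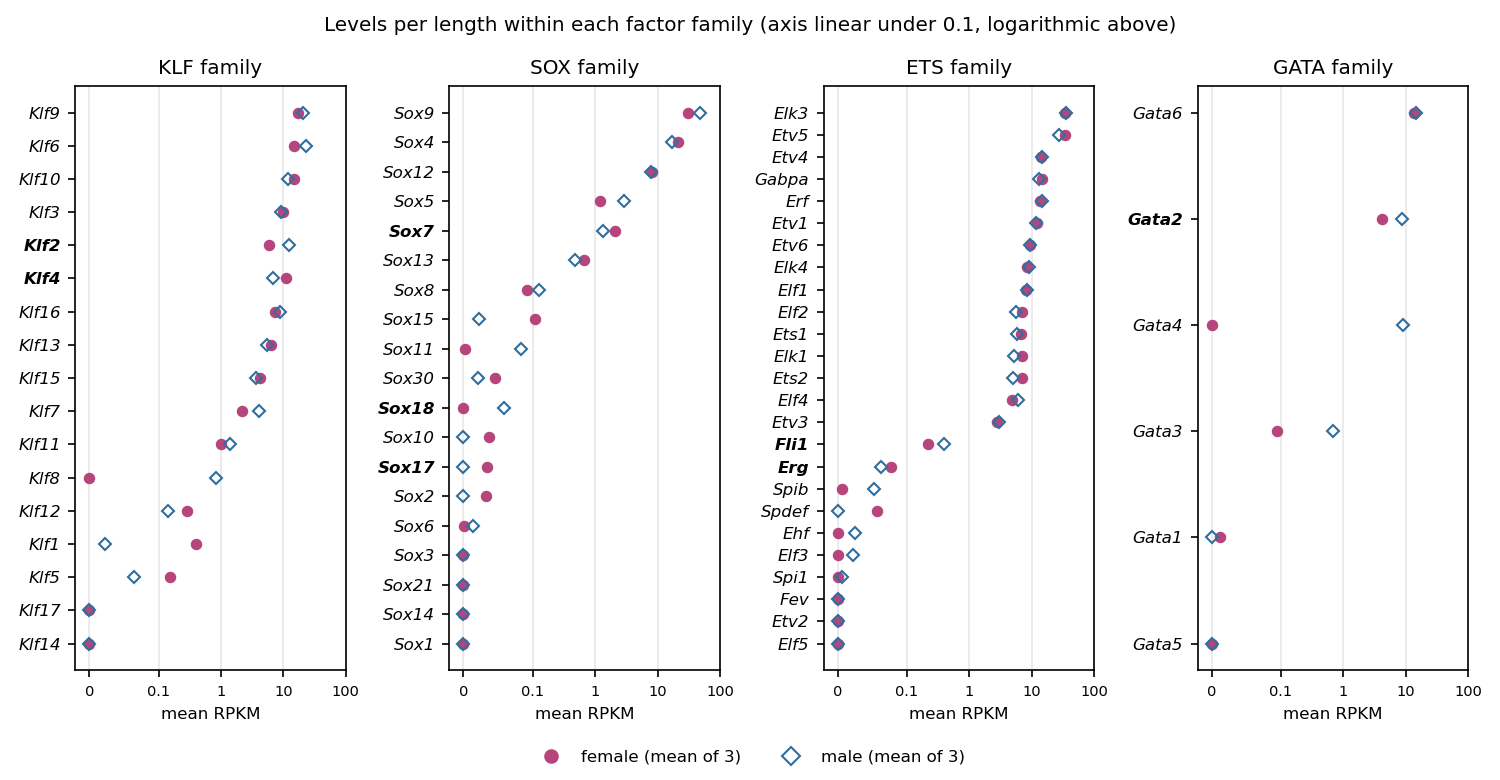
Mean RPKM over 3 female (filled circles) and 3 male (open diamonds) libraries for every gene of the KLF, SOX, ETS and GATA lists, with the endothelial factors in bold, on an axis that is linear under 0.1 and logarithmic above. Erg and Fli1 lie under the 15 tested ETS genes, Sox17 and Sox18 near 0, and Klf2 and Klf4 trade places between the sexes.

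Of the SOXF genes only Sox7 (chromosome 14, 63943673 to 63950732) reached the filter. It stood at 6.85, 5 and 8.54 CPM in female and 4.93, 5.21 and 3.36 CPM in male libraries. Female replicate 2 lay between male replicates 1 and 2, and the other female libraries were above every male one. The log2 ratio was 0.59 ± 0.26 and Sox7 was not called (adjusted p by edgeR = 0.159). Leaving out each library in turn moved it from 0.39, without female replicate 3, to 0.76, without female replicate 2, and it was called in none of these fits. Limma-voom with quality weights gave 0.25 (adjusted p = 0.311).

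Sox17 (chromosome 1, 4490931 to 4497354), the SOXF gene of arterial endothelium, had 5, 1 and 5 counts in the female libraries and 0 in each male library. The sexes did not overlap, but female replicate 2 had 1 count, under the floor of 3 counts for a single library. Its separation from the male libraries thus rests on that count. Of all tested genes 35.9% did not overlap, and Sox17, with too few counts for the filter, was not among the tested genes. With 3 counts set for the male sum, Sox17 was 3.54-fold higher in female. That value leaves out the counting error of the female counts, and edgeR without the filter did not call Sox17 (adjusted p = 0.204). Gm37587, which overlaps its exons on the opposite strand, had 0 counts in all 6. Sox18 (chromosome 2, 181669836 to 181671640), named for vascular and lymphatic development, had 5 counts in male replicate 3 and 0 in the other 5 libraries. Its only signal thus came from the library that stood apart, as did all 7 male counts of Kdr, the VEGF receptor gene of endothelium.

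Sox7 ranked 4 of 19 SOX genes per length in female and 5 in male libraries, behind Sox9, Sox4 and Sox12 in both and also behind Sox5 in male. Of the other 16 SOX genes 10 stayed under 1 CPM in every library, 4 of them at 0 counts. Sox9, a regulator of cartilage and of progenitor cells, took 47.6 ± 2.99% of the summed SOX RPKM in female and 62.1 ± 4.07% in male libraries, and Sox4 33 ± 3.89% and 21.3 ± 5.18%. Sox7 took 3.18 ± 0.79% and 1.75 ± 0.208%. Of these 16 genes 6 were tested, with 0 higher, 3 lower and 3 not called, beside 18.3% called over all tested genes. Their median log2 ratio was -0.27. The same 0 and 3 were found at an unadjusted p under 0.05, by DESeq2, by limma-voom and without male replicate 3. Sox9 fell to 127 ± 7.04 CPM in female against 198 ± 12.3 in male libraries (log2 ratio -0.64 ± 0.10, adjusted p by edgeR = 0.00183), and Sox5 had a log2 ratio of -1.25 ± 0.22 (adjusted p by edgeR = 0.00291). Sox11 was called too, with 1 count in female and 41 in male libraries (pooled ratio 0.0235, counting interval 0.000582 to 0.139).

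Tal1 (chromosome 4, 115056426 to 115071755) had 0 counts in every library. Lyl1 (chromosome 8, 84701457 to 84704715), its close relative, had 12, 11 and 10 counts in female and 1, 5 and 8 counts in male libraries. In CPM these were 0.548, 0.618 and 0.427 against 0.0484, 0.221 and 0.455, so that male replicate 3 lay within the female range. The pooled ratio was 2.28 with a counting interval of 1.18 to 4.6, which leaves out the spread between libraries, and edgeR without the filter did not call Lyl1 (adjusted p = 0.537). Without male replicate 3 it passed the filter at 1.90 ± 0.94 (log2 ratio) and was not called (adjusted p by edgeR = 0.13). Nfix overlaps Lyl1 by 4 exonic bases on the opposite strand and had 4915 to 6581 counts per library. Whether counting used strand is unknown, so reads of these neighbours near that overlap cannot be told apart.

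Partners of TAL1 and LYL1 were present. Of 12 listed partners and relatives 9 were tested, with 3 higher, 2 lower and 4 not called, and a median log2 ratio of 0.45. The 5 called of 9 stand beside 18.3% called over all tested genes. Without male replicate 3 these were 5 higher and 2 lower, beside 32.7% of all genes in that fit. Lmo2, the bridging protein of the complex, was at 3.52, 3.37 and 3.03 CPM in female and 7.74, 7.99 and 6.54 CPM in male libraries, lower in every female library (log2 ratio -1.17 ± 0.19, adjusted p by edgeR = 0.00219). Ldb2 had 0 counts in female and 68 in male libraries (adjusted p by edgeR = 0.00181). It was 23.5-fold lower in female with 3 counts set for the female sum, counting error aside. Cbfa2t3, a corepressor of the complex, rose from 1.76 ± 0.863 to 8.06 ± 1.6 CPM (log2 ratio 2.18 ± 0.33, adjusted p by edgeR = 0.00136), and Runx1 had a log2 ratio of 0.65 ± 0.18 (adjusted p by edgeR = 0.0287). Ldb1 (134 CPM in female, 138 in male libraries) and the E protein gene Tcf3 (142 and 149) were not called. The E protein genes Tcf4 (551 CPM in female, 392 in male libraries) and Tcf12 (192 and 141) did not overlap between the sexes. With all libraries neither was called (adjusted p by edgeR = 0.0646 and 0.0804). Both were called higher in female without male replicate 3 (adjusted p by edgeR = 0.0113 and 0.0261).

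Gata2 (chromosome 6, 88193891 to 88207032) had the smallest adjusted p among the 5 tested factors. It had 485, 424 and 503 counts in female and 921, 1086 and 890 counts in male libraries, or 22.1, 23.8 and 21.5 CPM against 44.6, 47.9 and 50.6 CPM. Every female library was below every male one, and the libraries of each sex lay close together. The log2 ratio was -1.09 ± 0.12 (adjusted p by edgeR = 0.000128), 2.12-fold lower in female. It was called in all 15 alternative settings, with log2 ratios of -1.14 to -1.02 and adjusted p of 2e-15 to 0.00185. These settings include the reported fit itself at the stricter threshold of an adjusted p under 0.01, and fits that leave out single libraries. Of all tested genes 87.7% had a smaller fold change in either direction.

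The other GATA genes gave a measure of how Gata2 stood in its family. Gata6, a factor of mesoderm-derived tissues including vessel walls, was the most abundant GATA gene per length, at 13.5 RPKM in female and 14.7 in male libraries, and was not called (log2 ratio -0.12 ± 0.10, adjusted p by edgeR = 0.474). The ratio of Gata2 to Gata6 RPKM was 0.293, 0.33 and 0.304 in female and 0.57, 0.59 and 0.651 in male libraries. Of the 5 other GATA genes 3 were tested, with 0 higher and 2 lower, beside 18.3% called over all tested genes. The same 0 and 2 were found at an unadjusted p under 0.05, by DESeq2 and by limma-voom. Gata4 had 0 counts in the female and 684, 908 and 547 counts in the male libraries (adjusted p by edgeR = 1.42e-06). It was 739-fold lower in female with 3 counts set for the female sum, counting error aside. Gata3 had a log2 ratio of -2.82 ± 0.42 (adjusted p by edgeR = 0.00108). Gata2 made up 23.4 ± 1.16% of the summed GATA RPKM in female and 26.7 ± 1.75% in male libraries, since that sum also differed, at 17.8 against 33.1 RPKM.

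Gata2, Tal1 and Lyl1 are also blood cell genes, so blood markers were read beside them. Of 9 erythroid, megakaryocyte and mast cell markers 6 stayed under 1 CPM in every library and Ms4a2, Hba-a1 and Hbb-bt had 0 counts in all 6. The list summed to 12.1 to 18.1 CPM in female and 11.2 to 13.1 CPM in male libraries. Kit rose in female (11.2 ± 1.83 against 3.78 ± 1.59 CPM, adjusted p by edgeR = 0.00376), Hdc was lower (adjusted p by edgeR = 0.0174), and the leukocyte genes Ptprc and Itgam had 0 counts in all 6. Of 4 tested macrophage and leukocyte markers 2 were higher in female, beside 18.3% called over all tested genes. They were Cd14 (17.9 ± 2.82 against 7.7 ± 1.26 CPM, adjusted p by edgeR = 0.00128) and Lyz2 (12.7 ± 2.45 against 5.22 ± 1.94 CPM, adjusted p by edgeR = 0.00948), while Cd68 and Csf1r were not called. The 7 macrophage and leukocyte markers summed to 29.4 to 38.4 CPM in female and 12.6 to 19 CPM in male libraries. Their part in the Gata2 difference was not tested.

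Klf2 (chromosome 8, 72319033 to 72321656) had 238, 198 and 238 counts in female and 350, 541 and 460 counts in male libraries, or 10.9, 11.1 and 10.2 CPM against 16.9, 23.9 and 26.2 CPM. The female libraries were nearly equal and all lay below the male ones, among which replicate 1 was lowest. Klf2 was 2.08-fold lower in female, with a log2 ratio of -1.06 ± 0.18 (adjusted p by edgeR = 0.00259). It was called in all 15 alternative settings, at -1.23 to -0.93 and an adjusted p of 1.71e-07 to 0.0195.

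Klf4 (chromosome 4, 55527143 to 55532466) moved the other way. It had 775, 590 and 724 counts in female and 386, 550 and 344 counts in male libraries, or 35.4, 33.2 and 30.9 CPM against 18.7, 24.3 and 19.6 CPM. All female libraries were above all male ones, the highest of which was replicate 2. Klf4 was 1.59-fold higher in female, with a log2 ratio of 0.67 ± 0.14 (adjusted p by edgeR = 0.00853). Of 15 alternative settings 14 called it. Without female replicate 1 it missed the threshold (log2 ratio 0.61, adjusted p by edgeR = 0.0526).

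The balance of the 2 KLF genes within a library therefore differed between the female and male libraries. The ratio of Klf4 to Klf2 RPKM was 1.97, 1.81 and 1.84 in female and 0.668, 0.616 and 0.453 in male libraries. Klf4 was the more abundant in every female library and Klf2 in every male library. Klf4 made up 11.4 ± 0.331% of the summed KLF RPKM in female and 6.35 ± 0.831% in male libraries, and Klf2 6.1 ± 0.381% and 11.4 ± 3.3%, while the sum itself was 95.3 and 108 RPKM.

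**Figure D3:**
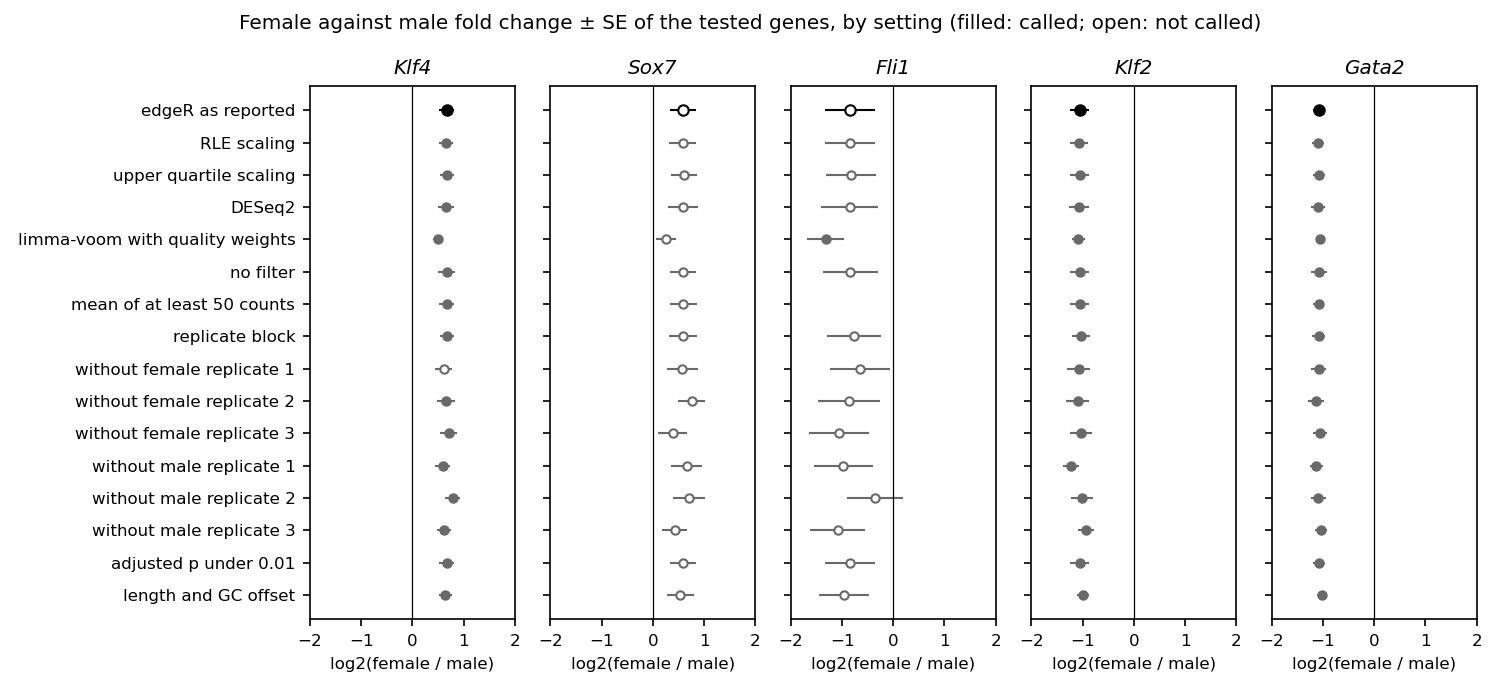
Log2 fold change of female over male ± SE (horizontal axis) of the 5 tested factors under the reported edgeR fit and 15 alternative settings, with filled points where the gene was called. The setting of an adjusted p under 0.01 repeats the reported fit. Gata2 and Klf2 stay near -1 and called in each, Klf4 loses its call only without female replicate 1, and Fli1 is called only by limma-voom.

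Among the other 15 KLF genes 12 were tested, with 0 higher, 2 lower and 10 not called, beside 18.3% called over all tested genes. Their median log2 ratio was -0.08. At an unadjusted p under 0.05 these were 2 higher and 4 lower, and by DESeq2 1 and 3. By limma-voom, which called 3305 and 3289 of 14932 genes, they were 1 and 6. Without male replicate 3, where 32.7% of all tested genes were called, they were 2 and 4. Klf6, an early response gene of injured vessels, fell to 65.9 ± 1.93 CPM in female against 100.1 ± 9.09 in male libraries (log2 ratio -0.60 ± 0.11, adjusted p by edgeR = 0.00344). Klf8 had 0 counts in the female and 140, 83 and 45 counts in the male libraries (adjusted p by edgeR = 0.000347). It was 92.5-fold lower in female with 3 counts set for the female sum, counting error aside. Klf10 (log2 ratio 0.33 ± 0.11, adjusted p by edgeR = 0.063) and Klf7 (-0.86 ± 0.32, adjusted p by edgeR = 0.105) were not called with all libraries, and both were called without male replicate 3 (adjusted p by edgeR = 0.0113 and 1.65e-06).

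The promoters of the 3 called factors are shown because Klf2 and Klf4 answer to the same flow pathway in endothelium yet differed in opposite directions here. Each line gives the 250 bases before a RefSeq transcript start, 5′ to 3′ on the gene's strand (RefSeq, build GRCm38.p6), with matches to searched motifs in capitals. The Klf2 window lies at chr8:72318812-72319061 (plus strand), the Klf4 window at chr4:55532476-55532725 (minus strand), and the Gata2 windows, for 2 transcript starts, at chr6:88193641-88193890 and chr6:88198414-88198663 (plus strand).
Klf2: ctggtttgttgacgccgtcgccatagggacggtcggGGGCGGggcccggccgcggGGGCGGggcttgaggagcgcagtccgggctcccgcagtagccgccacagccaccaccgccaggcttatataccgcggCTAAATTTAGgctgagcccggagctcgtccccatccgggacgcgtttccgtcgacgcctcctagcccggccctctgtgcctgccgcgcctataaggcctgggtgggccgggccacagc
Klf4: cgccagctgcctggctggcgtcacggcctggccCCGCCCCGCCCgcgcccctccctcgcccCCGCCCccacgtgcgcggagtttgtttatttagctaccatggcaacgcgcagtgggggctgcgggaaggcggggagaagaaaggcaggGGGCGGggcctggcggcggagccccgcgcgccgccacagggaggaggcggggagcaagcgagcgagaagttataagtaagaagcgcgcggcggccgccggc
Gata2 first start: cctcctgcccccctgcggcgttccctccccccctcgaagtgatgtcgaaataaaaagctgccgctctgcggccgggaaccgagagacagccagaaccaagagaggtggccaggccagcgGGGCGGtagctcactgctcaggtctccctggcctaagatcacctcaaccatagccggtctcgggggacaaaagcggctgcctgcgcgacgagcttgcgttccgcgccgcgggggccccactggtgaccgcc
Gata2 second start: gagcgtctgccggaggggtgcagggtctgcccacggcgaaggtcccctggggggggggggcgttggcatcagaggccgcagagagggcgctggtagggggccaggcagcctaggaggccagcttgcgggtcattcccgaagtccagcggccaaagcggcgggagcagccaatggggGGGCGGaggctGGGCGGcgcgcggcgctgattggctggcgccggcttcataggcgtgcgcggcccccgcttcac
The motifs were CTA, any 4 bases and TAG for MEF2, GGGCGG for the GC box, AGATAA for GATA, CCGGAAGT for ETS and CCACACCC for a KLF-type CACCC element, read on both strands. The Klf2 window holds 1 MEF2 match, from -118 to -109 before the start, which 3.2% of all 32851 windows of this length hold. The Klf4 window and both Gata2 windows hold no such letters. GC boxes, present in 32.7% of windows, occur 2 times in the Klf2 window, 4 times in the Klf4 window with a pair sharing a base, 1 time in the first and 2 times in the second Gata2 window. None of these 4 windows holds the GATA, ETS or CACCC letters. These windows are 67.2% to 74% G and C. The promoters of Fli1, Sox7, Sox17 and Sox18 were not in the table used.

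Listed genes that act upstream of KLF2 and KLF4 were called in both directions. The list was not sorted by whether a gene raises or lowers KLF2 and KLF4. The directions of its genes and their median therefore give no direction for the pathway. Of 13 genes of the MEK5, ERK5, MEF2 and CCM pathway and its flow sensor Piezo1, 12 were tested, with 2 higher, 2 lower and 8 not called, beside 18.3% called over all tested genes, and a median log2 ratio of -0.09. Limma-voom called 2 higher and 4 lower, beside 3305 higher and 3289 lower of all 14932 tested genes. Omitting male replicate 3 gave 2 higher and 3 lower, the added gene being Map3k2 (adjusted p by edgeR = 6.97e-05). The kinase genes Map2k5 (MEK5, -0.08 ± 0.14, adjusted p by edgeR = 0.759) and Mapk7 (ERK5, -0.04 ± 0.11, adjusted p by edgeR = 0.854) were not called. Mef2a fell (log2 ratio -0.53 ± 0.14, adjusted p by edgeR = 0.0267) and Mef2c rose (1.00 ± 0.25, adjusted p by edgeR = 0.0204), with Mef2a more abundant per length than Mef2c in both sexes. Mef2d was the most abundant MEF2 gene, at 18.2 RPKM in female and 17.2 in male libraries, and was not called (0.07 ± 0.17, adjusted p by edgeR = 0.819). Piezo1, a stretch-gated channel, stood at 658, 533 and 514 CPM in female and 353, 330 and 177 CPM in male libraries (log2 ratio 0.99 ± 0.23, adjusted p by edgeR = 0.0159). Heg1, the receptor that binds the CCM complex, stood at 230.4, 198 and 199 CPM in female and 533, 485 and 259 CPM in male libraries (-1.03 ± 0.23, adjusted p by edgeR = 0.0127). For both, male replicate 3 was the lowest male library and the sexes did not overlap.

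Among genes known as KLF2 and KLF4 targets in endothelium, Thbd was higher and Vcam1 lower in female libraries, where Klf2 was lower and Klf4 higher. The part of either factor in the differences of these genes was not tested. Thbd (thrombomodulin), which these factors induce, stood at 735, 690.4 and 653 CPM in female and 149, 149 and 128 CPM in male libraries. Its log2 ratio was 2.28 ± 0.12 (adjusted p by edgeR = 1.42e-06). Nos3 (endothelial nitric oxide synthase), the other classical target, was too low to be tested, with 7, 6 and 15 counts in female and 1, 1 and 0 in male libraries (pooled ratio 13.5, counting interval 3.41 to 117). Vcam1, an adhesion receptor gene that KLF2 represses, fell to 287 ± 19.6 CPM in female against 549 ± 9.8 in male libraries (log2 ratio -0.94 ± 0.10, adjusted p by edgeR = 0.000167). S1pr1 (-0.12 ± 0.13, adjusted p by edgeR = 0.584) and Edn1 (0.48 ± 0.48, adjusted p by edgeR = 0.566) were not called. Sele, the E-selectin gene, was not called (-0.51 ± 0.25, adjusted p by edgeR = 0.204) except without male replicate 3, where it was lower in female (adjusted p by edgeR = 0.00701).

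KLF2 and KLF4 are also early response genes outside endothelium, so immediate early genes were set beside them. Of 14 such genes 9 were higher in female, 1 was lower and 4 were not called, beside 18.3% called over all tested genes. Their median log2 ratio was 1.15, against -0.01 over all tested genes. Junb was called higher as well without male replicate 3 (adjusted p by edgeR = 6.66e-05). Fos (2.30 ± 0.14, adjusted p by edgeR = 3.23e-06), Zfp36 (1.61 ± 0.11, adjusted p by edgeR = 9.33e-06) and Egr1 (1.41 ± 0.11, adjusted p by edgeR = 1.41e-05) rose, and Egr2 fell (-1.77 ± 0.12, adjusted p by edgeR = 6.28e-06). They summed to 1972 to 2151 CPM in female and 1019 to 1194 CPM in male libraries. Their part in the Klf4 and Klf2 differences was not tested. Of 7 smooth muscle markers, where KLF4 is a known repressor, 4 were tested. Acta2 was lower in female (3.23 ± 0.749 against 20.3 ± 6.01 CPM, adjusted p by edgeR = 7.6e-05), while Smtn, Tagln and Lmod1 were not called. Myh11 and Cnn1 stayed under 1 CPM. Des, with 56 counts in female and 4 in male libraries, did not pass the filter. Without male replicate 3, the highest library for Acta2, Acta2 stayed lower and Des was called higher (adjusted p by edgeR = 0.0229). The 7 summed to 118 to 120.5 CPM in female and 142 to 176 CPM in male libraries, most of it from Smtn (112 and 129 CPM). Of the 10 fibroblast markers 5 were higher, 1 was lower and 4 were not called, again beside 18.3% called over all tested genes. Col3a1 carried most of the difference in their sum (4976 ± 227 against 2014 ± 166 CPM, adjusted p by edgeR = 4.08e-05). Thy1 was lower in female (205 ± 5.26 against 289.8 ± 43.2 CPM, adjusted p by edgeR = 0.0208), and Col1a1, Col1a2, Fap and Mfap5 were not called. Fap was lower without male replicate 3 (adjusted p by edgeR = 0.0229). The part of the smooth muscle and fibroblast markers in the KLF differences was not tested. In such bulk samples fewer cells of a type and less RNA per cell cannot be told apart.

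**Figure D4:**
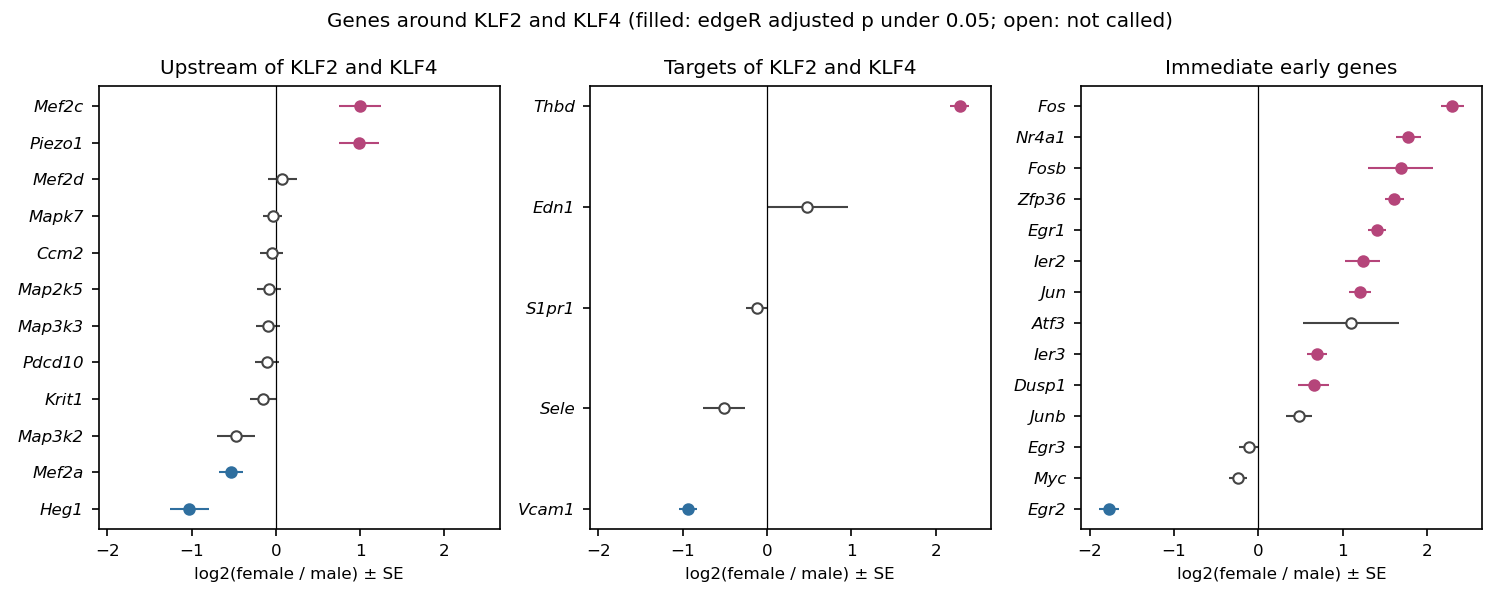
Log2 fold change of female over male ± SE (horizontal axis) for tested genes upstream of KLF2 and KLF4, known targets reported here and immediate early genes, with filled points where edgeR called the gene. Thbd rises and Vcam1 falls, and Map2k5 and Mapk7 lie near 0. Of 14 immediate early genes 9 are called higher, against 9.68% of all tested genes.

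Endothelial genes that ETS, SOXF or GATA2 proteins are known to bind gave few values. Of 20 such genes 13 stayed under 1 CPM in every library, 9 were tested, 2 were higher, 1 was lower and 6 were not called (median log2 ratio -0.22). The 3 called of 9 stand beside 18.3% called over all tested genes. Without male replicate 3 these were 2 higher and 2 lower, beside 32.7%, the added gene being Flt1. Notch4 fell to 7.65 ± 1.8 CPM in female against 33.1 ± 2.73 in male libraries (adjusted p by edgeR = 4.08e-05). The venous regulator Nr2f2 rose from 159 ± 9.28 to 279 ± 11.4 CPM (adjusted p by edgeR = 0.000351) and the venous receptor gene Ephb4 from 73.4 ± 5.97 to 113 ± 2.77 CPM (adjusted p by edgeR = 0.00231). Tek, the angiopoietin receptor gene, had 15 counts in female and 29 in male libraries and was not tested.

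The genes whose level most resembled each factor over the 6 libraries were found among 11928 genes with a mean of at least 50 counts, by Pearson correlation of log2 CPM. These are descriptions, since any gene that differs by sex shares most of such a pattern. Fkbp9 was among the closest to Gata2 (r = 0.999), and 601 genes exceeded 0.95. Aldh2 was closest to Klf2 (r = 0.999, 272 genes over 0.95), Sh3bp2 to Klf4 (r = 0.999, 208 genes) and Vamp7 to Sox7 (r = 0.988, 26 genes).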

How the data were processed

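Each gene's level was read from whole-number counts, which the authors deposited without normalization as 1 column per library. The submitters' processing notes name HISAT2 2.0.5 for alignment and featureCounts 1.5 for counting; build and strand setting: not given in the sources used here. GENCODE M21 (GRCm38) held 99.8% of the identifiers, and 98.3% of these had identical coordinates.

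Libraries were grouped by the labelled sex. Genes passing filterByExpr (minimum count 10) entered a robust quasi-likelihood F test (edgeR 4.0.16, R 4.3.3) over all 6 libraries after TMM scaling, and p-values were adjusted by Benjamini-Hochberg over all 14932 tested genes. Alternatives used limma 3.58.1 (voom with quality weights) and DESeq2 1.42.0. On simulated counts for this comparison (14591 genes) 65% of 100 genes with a 2-fold and 86% of 100 genes with a 4-fold change were found, and 7 of 158 calls were false. Only these genes were changed, a smaller share than the 18.3% called in the data. The simulation also held no library that stood apart like male replicate 3. Its found and false shares therefore need not hold for these data.

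The factors and the gene lists were chosen with earlier results of these data known. Named genes were the 10 factors, up to 4 tested genes of each list with the smallest p, the markers, and the closest genes by correlation. Ldb1, Tcf3, Tcf4, Tcf12, Klf7, Klf10, Map2k5, Mapk7, S1pr1, Edn1, Sele, Map3k2, Junb, Sox12, Nos3, Etv2, Etv5, Elk3, Sox4, Tek, Kdr and the overlapping genes were named after their values were seen. Some genes that this rule covers are not reported here.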

Additional observations from a re-analysis of the deposited data

How the results depend on the processing

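Settings varied were the scaling (RLE, upper quartile), the tool (DESeq2, limma-voom with quality weights), the filter (none, or a mean of at least 50 counts, under which Fli1 was not tested), a replicate block, the omission of single libraries, and the threshold (adjusted p under 0.01). An offset for gene length and GC content was chosen after seeing the data. Genes called higher and lower in female numbered 1446 and 1287, against 3305 and 3289 by limma-voom, 900 and 835 at an adjusted p under 0.01, and 1969 and 1938 with the offset. Leaving out each library gave 967 to 2508 higher and 903 to 2543 lower, each highest without male replicate 3. Over these single omissions the called factors ranged from 0 to 1 higher, with 0 only without female replicate 1, and were 2 lower in each. Limma-voom called 3 lower, adding Fli1. The causes were not tested. Klf2 and Gata2, whose transcripts have more GC than 98% and 91.8% of tested genes, had log2 fold changes of -0.99 and -1.02 with the offset, and both were called. Same-numbered libraries did not clearly share deviations from their group mean (correlations 0.206, -0.00405 and 0.152). With the replicate block 1619 genes were higher and 1449 lower, and 1 factor was higher and 2 were lower. A count of 1 to 12, as for Erg and Lyl1, leaves changes of a few fold undetected.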

Other observations

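The authors' tf_family column shows how the families of the 10 factors behaved as a whole. Of 16 tested genes in the ETS family 1 was higher and 0 lower in female by edgeR (6.25% called), the lowest share among the 5 families read. Of 49 bHLH genes 12 were higher and 5 lower (34.7%), of 30 HMG genes 2 and 4 (20%), of 11 GATA-type genes 0 and 3 (27.3%), and of 450 C2H2 zinc finger genes 35 and 21 (12.4%). Over all tested genes 18.3% were called, and 20.3% of all tested transcription factor genes. Whether the shares of the families differ was not tested. Klf1, the erythroid KLF gene, did not pass the filter and had 39 counts in female and 2 in male libraries (pooled ratio 18.8, counting interval 4.87 to 161, counting error only). Its male counts were 1, 0 and 1, and without male replicate 3 it passed the filter and was called (adjusted p by edgeR = 0.00909).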
